A study of Mus musculus with 17 samples.

Results

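Neurons release peptides and synaptic proteins from dense-core vesicles and at synapses, and 9 genes of this secretory output are described here: Vgf, Scg2, Scg3 and Chgb (granins), Pcsk1 and Pcsk2 (proprotein convertases), Nptx1 and Nptx2 (neuronal pentraxins) and Inhba (a subunit of activin). The 9 were found by symbol among the 36293 genes of the bulk files and the 37608 genes of the nuclei tables, and all 9 were present in both. They were chosen by name with earlier results of these data known, among them the higher Vgf level after stress in layer 2/3 and layer 4 nuclei. The Vgf values of those nuclei are therefore given as a description with no test.

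All mice were adult C57BL/6 males (C57BL/6J in the study's methods). Mice under chronic unpredictable stress (CUS) were put through 3 varying stressors a day for 12 days from 9–10 weeks of age, and control mice were not stressed. Nuclear RNA of the medial prefrontal cortex (mPFC) was sequenced in bulk from 4 control and 5 CUS mice at postnatal day 90, and droplet-based single-nucleus RNA sequencing (sNucDrop-seq) was applied to the neocortex of 4 control and 4 CUS mice at postnatal day 80. Tissue was taken 24 h after the last stressor per the labels, whereas the methods of the study place the bulk collection after the last behavioral test. Each library is 1 mouse, and control mice were kept in another room and handled daily, so stress and room cannot be told apart.

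Granins are acidic proteins that pack into dense-core vesicles and are cut by convertases into peptides that are released when a neuron fires. Vgf yields peptides such as the TLQP series, Scg2 yields secretoneurin, Chgb is a bulk cargo of the vesicle and Scg3 binds other granins to the vesicle membrane. Neuronal pentraxins gather AMPA-type glutamate receptors at synapses, and activin signals through serine/threonine kinase receptors. Vgf, Nptx2, Scg2 and Inhba are known as genes that neuronal activity induces.

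Bulk libraries held between 26188825 and 30525015 reads on genes. The nuclei tables held 40000 barcodes, of which 26698 were kept, 1935 to 4235 a mouse, with a median of 2010 unique molecular identifiers (UMIs) and 1274 genes each. Of 26677 distinct barcodes kept, 20 occurred in more than 1 library. Nuclei fell into 24 classes of over 200 nuclei, which are called "X-like" where markers of cell type X lead them and otherwise by their 2 leading genes. Summed excitatory nuclei (17393) and summed cortical inhibitory nuclei (2858) are used below beside the single classes. The nuclei library of CUS replicate 2 changed results across all genes when left out, and the number of calls without it is given beside each such result. The study's methods describe batches of nuclei libraries and a strong batch effect, which was modelled there. The labels do not say which mouse was in which batch, so every test of nuclei here ignores it, and its part in their adjusted p was not tested.

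For the cAMP response element, the sequence through which CREB acts on activity-regulated genes, windows from 250 bases before to 50 bases after the gene start were read from RefSeq (GRCm38.p6). Windows were at hand for 6 of the 9 genes and not for Vgf, Nptx1 and Nptx2. The full element TGACGTCA, which reads the same on both strands, stood in 3 of the 6 windows (Pcsk1, Scg2 and Chgb) and in 1.79% of all 32851 windows. These 3 windows are shown because they hold the element, which is in capitals. In the Pcsk1 window a further copy of the core, TGACG, is also in capitals.
Pcsk1 promoter window, chr13:75089607-75089906, plus strand: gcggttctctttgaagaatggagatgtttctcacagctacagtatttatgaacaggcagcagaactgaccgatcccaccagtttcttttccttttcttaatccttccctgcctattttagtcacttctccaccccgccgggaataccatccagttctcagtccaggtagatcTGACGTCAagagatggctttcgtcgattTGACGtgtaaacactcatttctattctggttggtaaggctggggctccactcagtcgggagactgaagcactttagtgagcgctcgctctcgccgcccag
Scg2 promoter window, chr1:79439977-79440276, minus strand: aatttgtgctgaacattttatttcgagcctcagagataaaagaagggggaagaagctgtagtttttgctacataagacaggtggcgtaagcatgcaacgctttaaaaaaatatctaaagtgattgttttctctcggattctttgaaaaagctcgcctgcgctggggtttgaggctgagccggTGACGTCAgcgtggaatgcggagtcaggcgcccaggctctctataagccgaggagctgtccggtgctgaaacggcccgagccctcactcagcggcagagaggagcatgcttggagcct
Chgb promoter window, chr2:132781392-132781691, plus strand: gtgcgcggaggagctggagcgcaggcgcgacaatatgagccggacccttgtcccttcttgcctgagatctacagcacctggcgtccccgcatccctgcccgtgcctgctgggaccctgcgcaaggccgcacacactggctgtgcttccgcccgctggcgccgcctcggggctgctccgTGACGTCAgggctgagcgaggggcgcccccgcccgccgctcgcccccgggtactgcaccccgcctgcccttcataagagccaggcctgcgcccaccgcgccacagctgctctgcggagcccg

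Counted from the RefSeq start, the element lay at −78 to −71 in Pcsk1, at −68 to −61 in Scg2 and at −72 to −65 in Chgb. The RefSeq start lies 31 bases downstream of the start of the gene model in the bulk files for Pcsk1, 94 for Scg2 and 364 for Chgb, so in Scg2 and Chgb the element falls inside the gene model whose coordinates are given below. The core TGACG on either strand, which the full element contains, stood in 5 of the 6 windows (all but that of Inhba) against 20.8% of all windows. The AP-1 motif TGANTCA, searched on both strands, was in none of the 6 and in 7.81% of all windows. The CArG box, the motif of serum response factor, was in none of the 6 and in 1.63% of all windows. A match of letters is a description of the sequence, and binding was not measured here. The 3 genes with the element had bulk log2 fold changes of −0.49 (Pcsk1), −0.24 (Scg2) and −0.03 (Chgb), of which only the first passed the test described next.

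To ask how CUS changed nuclear RNA in the mPFC, reads per gene were compared between 4 control and 5 CUS mice with edgeR's quasi-likelihood test. Vgf rose and Pcsk1 fell at an adjusted p under 0.05, and the other 7 genes did not pass. Across all 18394 genes tested, 2.13% were called lower and 1.16% higher in CUS mice. For the 9 genes this means 1 call in each direction. Levels below are in CPM, a gene's count scaled to a common library total with edgeR's TMM factors, and are compared between mice and not between genes.

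Vgf (ENSMUSG00000037428, mm10 chromosome 5, 137026392–137033351, plus strand) is the precursor of several neuropeptides. Its level was 12.6, 14.4, 22.4 and 16.4 CPM in the control mice, taken in the order of their replicate numbers as in all such lists here, while the CUS mice had 29.1, 20.4, 23.3, 24.6 and 26.04 CPM. Control replicate 3 was the highest control and lay above CUS replicate 2, so the groups overlapped by these 2 mice. Means were 16.4 ± 4.25 (SD, n = 4) and 24.7 ± 3.22 CPM (SD, n = 5), a log2 fold change of 0.59 (SE 0.14) with an adjusted p of 0.0465 by edgeR's quasi-likelihood test. The call held in 2 of 9 fits that left out 1 mouse. Adjusted p by edgeR was 0.0027 without control replicate 3 and 0.0413 without CUS replicate 2, and between 0.0711 and 0.137 without control replicate 1, 2 or 4 or CUS replicate 1, 3, 4 or 5, while the log2 fold change stayed between 0.48 and 0.76. Calls over all genes moved in these fits too. They were 606 with all mice, 1508 without control replicate 3 and 607 without CUS replicate 2. Without control replicate 2 or CUS replicate 4 or 5 they were 133, 148 and 140. They were 628, 510, 352 and 316 without control replicate 1 or 4 or CUS replicate 1 or 3. These counts apply to every bulk value below that leaves out 1 mouse.

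Pcsk1 (ENSMUSG00000021587, chromosome 13, 75089826–75134861, plus strand) encodes the convertase PC1/3, which makes the first cuts in many prohormones, Vgf among them. It measured 119.7, 120.0, 78.4 and 88.4 CPM in the control mice and 69.0, 73.4, 78.0, 76.0 and 66.0 CPM in the CUS mice. Every CUS mouse lay below every control mouse, although control replicate 3 and CUS replicate 3 were nearly equal. Control mice averaged 102 ± 21.5 CPM (SD, n = 4) and CUS mice 72.5 ± 4.97 CPM (SD, n = 5). The log2 fold change was −0.49 (SE 0.12), with an adjusted p of 0.0399 by edgeR. Control replicates 1 and 2 set much of the size: without replicate 1 the log2 fold change was −0.41 (adjusted p = 0.0753 by edgeR) and without replicate 2 it was −0.40 (adjusted p = 0.128). The call held without control replicate 3 or 4 (adjusted p 0.0031 and 0.0360 by edgeR) and was lost without any 1 CUS mouse (0.0578 to 0.107). Calls over all genes moved in the same fits, as given for Vgf.

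**Figure D1:**
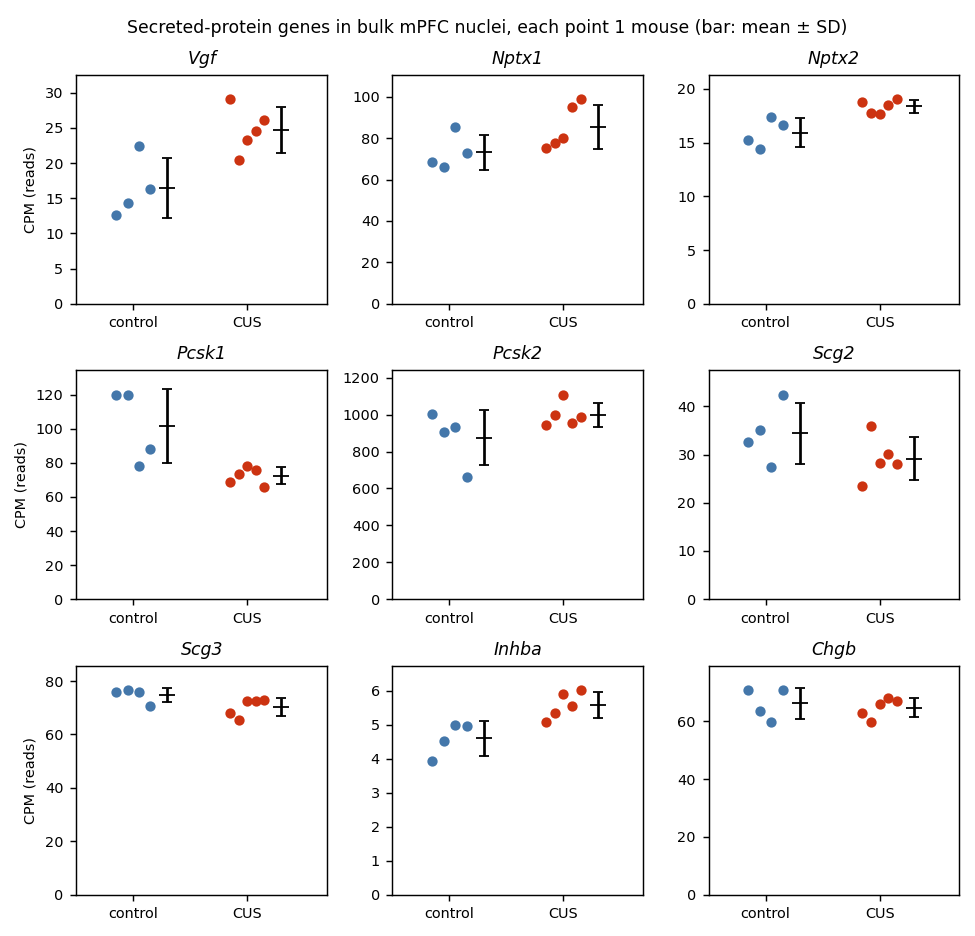
Level of the 9 genes in bulk mPFC nuclei, in CPM of reads (vertical axis, from 0), for 4 control mice (blue) and 5 CUS mice (red). Each point is 1 mouse and the black bar is the mean ± SD. Vgf points of CUS mice lie between 20.4 and 29.1 CPM, Pcsk1 points of CUS mice lie below all 4 controls, and Nptx2 and Inhba points lie above all 4 controls.

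The convertase that often acts after PC1/3 is PC2, encoded by Pcsk2 (ENSMUSG00000027419, chromosome 2, 143546156–143816285, plus strand). Control mice had 1002, 904, 931 and 661 CPM, and CUS mice had 943, 1001, 1108, 956 and 989 CPM. Only control replicate 4 stood well below the CUS mice. The log2 fold change was 0.19 (SE 0.10), with an adjusted p of 0.299 by edgeR, so the opposite signs of Pcsk1 and Pcsk2 involve 1 value that passed and 1 that did not. Without 1 mouse the Pcsk2 value lay between 0.09 and 0.26. Antisense RNAs Pcsk2os1 and Pcsk2os2 overlap this gene, the former at 4.67 CPM in control and 5.65 CPM in CUS mice, and the sources do not state how reads were assigned by strand.

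Both neuronal pentraxins were higher on average after CUS, without passing the test. Nptx2 (ENSMUSG00000059991, chromosome 5, 144545902–144557478, plus strand), also known as Narp, was at 15.3, 14.4, 17.4 and 16.6 CPM in the control mice and at 18.8, 17.8, 17.7, 18.5 and 19.1 CPM in the CUS mice. All CUS mice exceeded all controls, with a log2 fold change of 0.21 (SE 0.07) and an adjusted p of 0.107 by edgeR, which was 0.0486 without control replicate 3. That fit called 1508 genes, against 606 with all mice. Nptx1 (ENSMUSG00000025582, chromosome 11, 119538719–119547753, minus strand) was at 68.5, 65.9, 85.3 and 72.7 CPM in control mice and at 75.4, 77.6, 79.8, 94.9 and 98.9 CPM in CUS mice. Control replicate 3 lay above 3 of the CUS mice. Its log2 fold change was 0.22 (SE 0.10), with an adjusted p of 0.203 by edgeR.

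Inhba (ENSMUSG00000041324, chromosome 13, 16011851–16031621, plus strand) was the sparsest of the 9, with 104 to 176 reads a mouse. Control mice had 3.92, 4.51, 5.00 and 4.96 CPM, and CUS mice had 5.08, 5.36, 5.92, 5.56 and 6.02 CPM. The groups did not overlap, although the closest mice differed by less than the SD within either group, and the log2 fold change of 0.28 (SE 0.11) had an adjusted p of 0.149 by edgeR. An antisense gene, Gm48444, overlaps Inhba and averaged at most 0.054 CPM in either group. With Nptx2, Inhba and Pcsk1, 3 of the 9 genes showed no overlap between control and CUS mice, against 8.75% of all 18394 genes tested.

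The 3 remaining granins did not pass. Scg2 (ENSMUSG00000050711, chromosome 1, 79434669–79440120, minus strand) had 32.7, 35.1, 27.3 and 42.4 CPM in control and 23.5, 35.8, 28.3, 30.2 and 28.0 CPM in CUS mice. The ranges overlapped widely and the log2 fold change was −0.24 (SE 0.13), with an adjusted p of 0.292 by edgeR. Without 1 mouse it lay between −0.34 and −0.11. Scg3 (ENSMUSG00000032181, chromosome 9, 75643189–75684056, minus strand) lay between 70.7 and 76.6 CPM in control and between 65.5 and 73.0 CPM in CUS mice, a log2 fold change of −0.09 (95% interval −0.19 to 0.02). Chgb (ENSMUSG00000027350, chromosome 2, 132781278–132795079, plus strand) lay between 59.9 and 70.8 CPM in control and between 59.7 and 68.0 CPM in CUS mice, a log2 fold change of −0.03 (95% interval −0.16 to 0.09). For Chgb the interval leaves out changes as large as those of Vgf and Pcsk1.

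In bulk tissue fewer cells of a type and less RNA per cell cannot be told apart. Marker sums moved with the groups: the summed level of 9 striatal markers was 682 to 1180 CPM in control and 1166 to 1408 CPM in CUS mice (1 of 9 called, higher), and that of 7 oligodendrocyte precursor markers was 499.97 to 607 CPM and 394 to 466 CPM (2 of 7 called, lower). The 7 astrocyte markers summed to 2093 to 2490 CPM in control and 1923 to 2189 CPM in CUS mice (3 of 7 called, lower). Markers of Oligo_Opalin oligodendrocytes summed to 294 to 696 CPM and 309 to 392 CPM (1 of 7 called, lower), and those of Oligo_Enpp6 to 383 to 447 CPM and 360.1 to 392 CPM (2 of 7 called, lower). Of the layer markers, those of Ex_L6 summed to 1400.2 to 1676 CPM and 1322 to 1976 CPM and those of Ex_L2/3 to 429 to 598 CPM and 563 to 665 CPM (1 of 6 called in each, higher). Markers of Ex_L5/6 summed to 915 to 961 CPM and 812 to 981 CPM (1 of 6 called, lower). Those of Ex_L5/6_NP summed to 493 to 561 CPM and 495 to 601 CPM (1 of 6 called, higher). Claustrum markers summed to 292 to 361 CPM and 304 to 372 CPM (1 of 6 called, lower). No marker of Ex_L4, Ex_L5 or Ex_L6b was called. Their mean sums were 279, 200.3 and 79.4 CPM in control and 244, 207 and 68.6 CPM in CUS mice. CUS replicates 4 and 5 had the highest Ex_L6 sums and also the highest bulk Nptx1 levels. Other mice did not follow that order. CUS replicate 2, with an Ex_L6 sum of 1860 CPM, had less Nptx1 than control replicate 3, at 1676 CPM. CUS replicate 1 had the lowest Ex_L6 sum of all, 1322 CPM, and more Nptx1 than control replicates 1, 2 and 4. Choroid plexus markers were at 2.28 to 5.91 CPM and 1.75 to 2.27 CPM, without overlap (1 called, lower). The 5 general excitatory markers spanned 724 to 1186 CPM and 947 to 1034 CPM (1 of 5 called, higher). The 5 general inhibitory markers spanned 504 to 598 CPM in control and 439 to 614 CPM in CUS mice (0 of 5 called). Of the CUS mice, only replicate 2 (614 CPM) lay above the lowest control. Markers of Inh_Vip summed to 131 to 179 CPM and 156 to 229 CPM (1 of 6 called, higher). Those of Inh_Ndnf summed to 229 to 260 CPM and 234 to 259 CPM (1 of 7 called lower and 1 higher). No marker of Inh_Pv or Inh_Sst was called. None of these markers was at 0. In the single-nucleus data of control mice, striatum-like nuclei held 11 CPM of Pcsk1 against 71 CPM in excitatory nuclei, and 75 CPM of Vgf against 46 CPM. The part of these shifts in the bulk values of the 9 genes was not tested.

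Within summed excitatory nuclei, 5307 genes had enough UMIs to test. Of these, 2 were called at an adjusted p under 0.2 by edgeR's quasi-likelihood test, 0.0377% of those tested. None of the 9 genes was among the 2. The likelihood ratio test called 35 and DESeq2 33, Nptx1 among them in both. Of the members other than Vgf that could be tested, Nptx1 had the largest log2 fold change, upward. Pcsk1, lower in bulk, had nearly the same level in control and CUS mice. Nptx2 stayed under the filter on low counts in these nuclei.

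In excitatory nuclei, where CPM count UMIs instead of reads, Vgf levels were 51.1, 44.6, 50.6 and 39.8 CPM in the control mice, while the CUS mice had 79.2, 60.4, 70.5 and 73.6. All CUS mice lay above all controls, with CUS replicate 2 the lowest of them. Of 5307 genes tested in these nuclei, 110 likewise had all CUS mice above all controls, and 176 had all below. The ratio of the means was 1.52 and the log2 fold change 0.62 (SE 0.12), given as a description because these nuclei include those of layers 2/3 and 4. A Vgf UMI was found in 11.6% of control and 15.3% of CUS excitatory nuclei. After each nucleus was thinned to 1000 UMIs (8085 control and 8233 CUS nuclei left), the shares were 4.47% and 6.97%. Glial and vascular nuclei, which should hold little Vgf, had a share of 4.27% (2.79% thinned) at a median of 1204 UMIs against 2281 in excitatory nuclei. By group, their thinned share was 2.30% in control and 3.33% in CUS mice. Striatum-like nuclei had thinned shares of 6.51% and 9.62%, while Oligo_Opalin-like nuclei, a part of the glia, had 2.38% and 2.06%.

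Nptx1 stood at 70.4, 85.3, 71.7 and 64.0 CPM in the control and at 111, 81.6, 105 and 103 in the CUS mice. CUS replicate 2 was the only CUS mouse within the control range. The log2 fold change was 0.47 (SE 0.12), with an adjusted p of 0.504 by edgeR. Without CUS replicate 2 it was 0.57 with an adjusted p of 0.0573 by edgeR. That fit called 698 genes, against 2 with the library, so the adjusted p of any gene in these nuclei depended strongly on this 1 library.

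Nptx2 levels were 14.5, 13.4, 17.2 and 10.1 CPM in control and 27.2, 13.2, 23.4 and 18.8 in CUS mice, from 32 to 164 UMIs a mouse. Again CUS replicate 2 was the CUS mouse inside the control range, and the ratio of means, 1.50, has no test. Pcsk1 was at 59.7, 59.6, 86.3 and 79.5 CPM in control and 56.3, 79.4, 58.1 and 77.3 in CUS mice. Here both groups held a pair of low and a pair of high mice, and the log2 fold change was −0.06 (95% interval −0.36 to 0.23). That interval overlaps the one in bulk, −0.71 to −0.26, and the 2 data sets differ in region, age, mice, assay and the cells sampled. Whether the change differs between them was not tested.

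None of the other members passed the test in excitatory nuclei. Inhba had a log2 fold change of −0.24 (SE 0.16, 95% interval −0.56 to 0.09), opposite in sign to its bulk value, and an adjusted p of 0.592 by edgeR. Without 1 mouse the Inhba value lay between −0.37 and −0.11. Pcsk2 had −0.10 (95% interval −0.30 to 0.10), Scg2 0.08 (−0.18 to 0.35), Scg3 0.09 (−0.09 to 0.28) and Chgb 0.06 (−0.18 to 0.29). All 5 genes had overlapping groups.

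**Figure D2:**
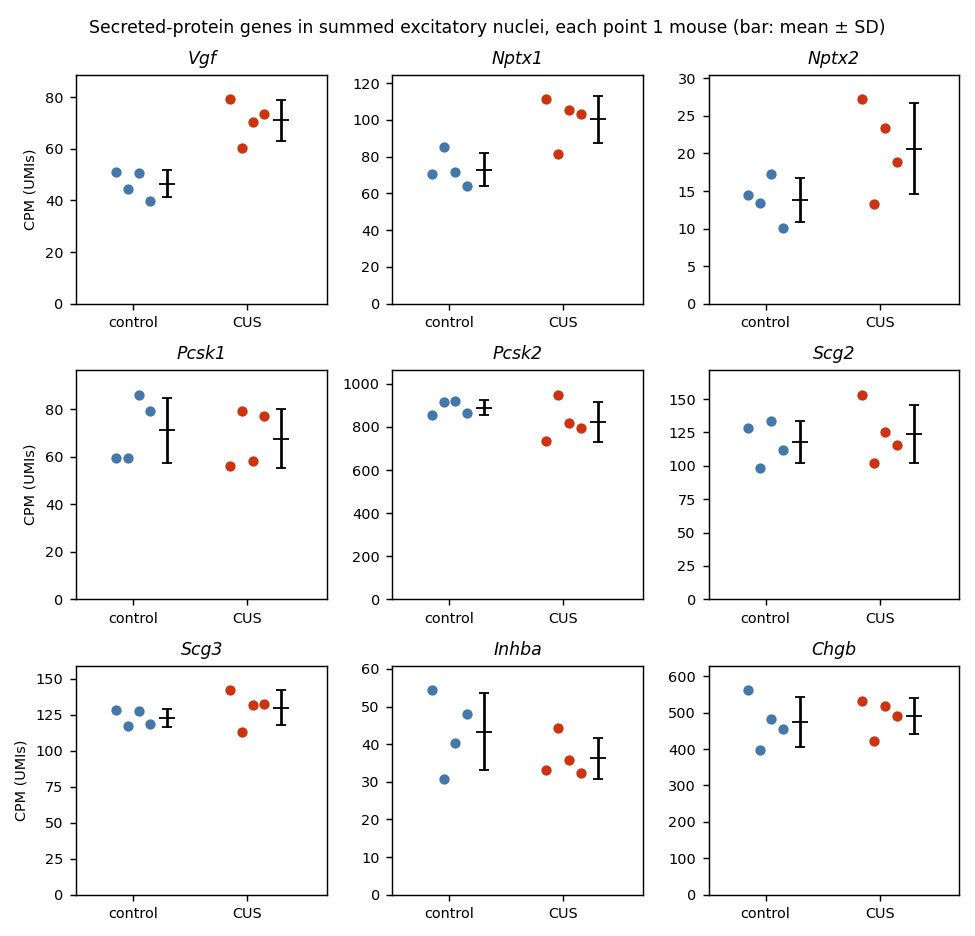
Level of the 9 genes in summed excitatory nuclei, in CPM (vertical axis, from 0), for 4 control (blue) and 4 CUS mice (red). Each point is 1 mouse and the black bar is the mean ± SD. Vgf points of CUS mice (60.4 to 79.2) lie above those of controls (39.8 to 51.1), and for Nptx1 and Nptx2 1 CUS point lies within the control range.

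In summed inhibitory nuclei none of 4771 genes was called (0%) by edgeR's quasi-likelihood test, and 219 (4.59%) had an unadjusted p under 0.05. DESeq2 called 0 and edgeR's likelihood ratio test 3. Without CUS replicate 2, 10 of 4877 genes were called, none of them a member, and 507 (10.4%) had an unadjusted p under 0.05. Nptx1, Nptx2, Pcsk1 and Inhba were too sparse there to test. Vgf had 115, 112, 125 and 91.0 CPM in control and 137, 93.8, 148 and 148 in CUS mice, with CUS replicate 2 again low and inside the control range. Its log2 fold change was 0.26 (SE 0.16), with an adjusted p of 0.927 by edgeR. In the C130073E24Rik/Rmst and Pbx3/Foxp2 clusters, which are outside this sum, Vgf had 0.55 (SE 0.29) and 0.52 (SE 0.49). Pcsk2 had a log2 fold change of −0.22 (95% interval −0.49 to 0.04). Pcsk1, from 12 to 38 UMIs a mouse, had 30.0, 34.5, 33.6 and 35.0 CPM in control and 15.9, 29.4, 28.8 and 26.2 in CUS mice, with no overlap and no test. Of the 4771 genes tested, 83 had all CUS mice below all controls and 62 had all above.

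Whether the CUS effect differed between excitatory and inhibitory nuclei of the same mice was tested as an interaction. None of 5245 genes passed (0%), with 309 (5.89%) at an unadjusted p under 0.05 by edgeR's quasi-likelihood test and 12 called by its likelihood ratio test. Without CUS replicate 2, 5 genes passed. The Vgf effect was 0.37 (SE 0.13) larger on the log2 scale in excitatory than in inhibitory nuclei, given with no test for the reason above. Chgb had a difference of 0.15 (SE 0.08) with an adjusted p of 0.894 by edgeR. Nptx1 and Pcsk1 entered this test through their excitatory UMIs and were too sparse in inhibitory nuclei for their difference to be read.

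**Figure D3:**
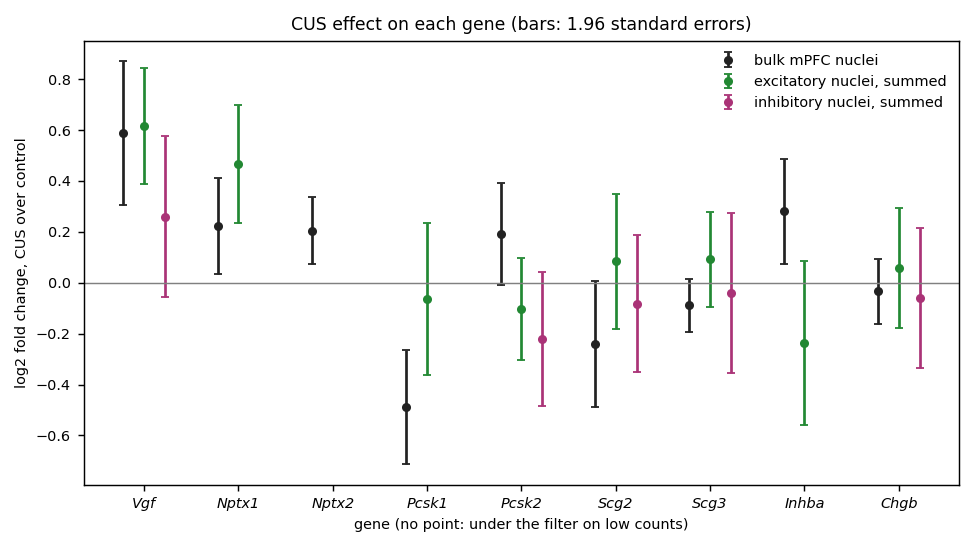
Log2 fold change of CUS over control (vertical axis) for each gene in bulk mPFC nuclei (black), summed excitatory nuclei (green) and summed inhibitory nuclei (purple), with bars for the 95% interval. A missing point marks a gene under the filter on low counts. The Vgf estimates are 0.59, 0.62 and 0.26, and the bulk Pcsk1 bar alone lies wholly below 0.

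Among the single classes, 129 of 110293 pairs of gene and class were called at an adjusted p under 0.2 within the class, 0.117% of those tested. Without CUS replicate 2, 1339 of 112804 pairs were called (1.19%). Of the 216 pairs of the 9 genes with 24 classes, 147 had enough UMIs to be fitted. With Vgf in Ex_L2/3-like and Ex_L4-like nuclei left out, 1 was called by edgeR's quasi-likelihood test, Nptx1 in Ex_L2/3-like nuclei, which was higher after CUS. The background was 0.875% of genes called in Ex_L2/3-like nuclei, 47 of 5370, and it too depended on CUS replicate 2, as 727 of 5482 genes were called without that mouse. In Ex_L4-like nuclei, where none of the other 8 genes passed, it was 0.653%, 30 of 4597, and 211 of 4735 without CUS replicate 2. Leaving out that mouse gave 5 calls among the members, again without Vgf in these 2 classes, and they are named below.

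In Ex_L2/3-like nuclei, the upper-layer neurons that project within the cortex, Nptx1 was at 49.4, 64.3, 52.8 and 55.4 CPM in control and 90.7, 80.4, 91.7 and 103 in CUS mice. The groups were apart, and the lowest CUS mouse was again replicate 2. Of 5370 genes tested in this class, 139 had all CUS mice above all controls and 153 had all below. Nptx1 thus rose, the means being 55.5 CPM in control and 91.3 CPM in CUS mice, with a log2 fold change of 0.73 (SE 0.15) and an adjusted p of 0.0529 by edgeR's quasi-likelihood test. Without CUS replicate 4 the adjusted p was 0.204, and without each other mouse it lay between 0.0111 and 0.138. Scg3 also lay higher in every CUS mouse of this class, with a log2 fold change of 0.37 (SE 0.14) and an adjusted p of 0.346 by edgeR, or 0.134 without CUS replicate 2.

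Vgf in Ex_L2/3-like nuclei was at 54.1, 37.4, 44.2 and 48.8 CPM in control and 84.7, 69.5, 69.7 and 69.3 in CUS mice. For Ex_L4-like nuclei the values were 40.3, 46.6, 57.7 and 34.9 in control and 80.3, 74.7, 73.1 and 76.9 in CUS mice. Neither class showed overlap, and the log2 fold change was 0.71 in both (SE 0.16 and 0.17). All CUS mice lay above all controls for 139 of 5370 genes in Ex_L2/3-like and 89 of 4597 in Ex_L4-like nuclei. They lay below all controls for 153 and 141. Counts were small, from 15 to 138 Vgf UMIs a mouse in these classes.

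In the other classes most Vgf values were also above 0. Leaving out Ex_L2/3-like and Ex_L4-like nuclei, the log2 fold change was above 0 in 15 of 18 classes tested and in 7 of the 9 excitatory ones, with a median of 0.53 over the latter and none called. Large excitatory classes had values such as 0.81 (SE 0.22) in Ex_L5/6-like, 0.76 (SE 0.20) in Ex_L6-like and 0.68 (SE 0.28) in Galnt14/Sulf1 nuclei. Without CUS replicate 2, Vgf passed in Ex_L6-like (0.88, adjusted p = 0.0807 by edgeR) and Galnt14/Sulf1 nuclei (0.85, adjusted p = 0.142 by edgeR), where 44 of 4630 and 238 of 5307 genes were then called, against 0 and 15 with the mouse. Inh_Pv-like interneurons had 0.58 (SE 0.23) and Inh_Sst-like ones 0.13 (SE 0.21). Values below 0 were found in Inh_Ndnf-like (−0.57, SE 0.46), Cpne7/B130024G19Rik (−0.17, SE 0.25) and Claustrum-like nuclei (−0.07, SE 0.50). Classes of the same mice share their libraries, so these are not separate replicates of the effect.

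Nptx1 had a log2 fold change above 0 in 11 of 13 classes tested and in 10 of 11 excitatory ones, with a median of 0.42 over the latter. The highest value, in the Tshz2/Slc17a6 cluster (0.75, SE 0.46), rested on 2 to 19 UMIs a mouse. Below Ex_L2/3-like nuclei came the Ndst4/Abi3bp (0.63, SE 0.20) and Galnt14/Sulf1 clusters (0.54, SE 0.18), with adjusted p of 0.564 and 0.387 by edgeR. Without CUS replicate 2 the adjusted p by edgeR was 0.237 in the Ndst4/Abi3bp cluster, where calls among all genes went from 0 to 47, and 0.113 in the Galnt14/Sulf1 cluster, where Nptx1 then passed. Ex_L6-like nuclei, where Nptx1 was most abundant apart from the Nefm/Nefl cluster, had 196, 235, 191 and 163 CPM in control and 262, 187, 246 and 286 in CUS mice, with CUS replicate 2 below 3 of the 4 controls.

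**Figure D4:**
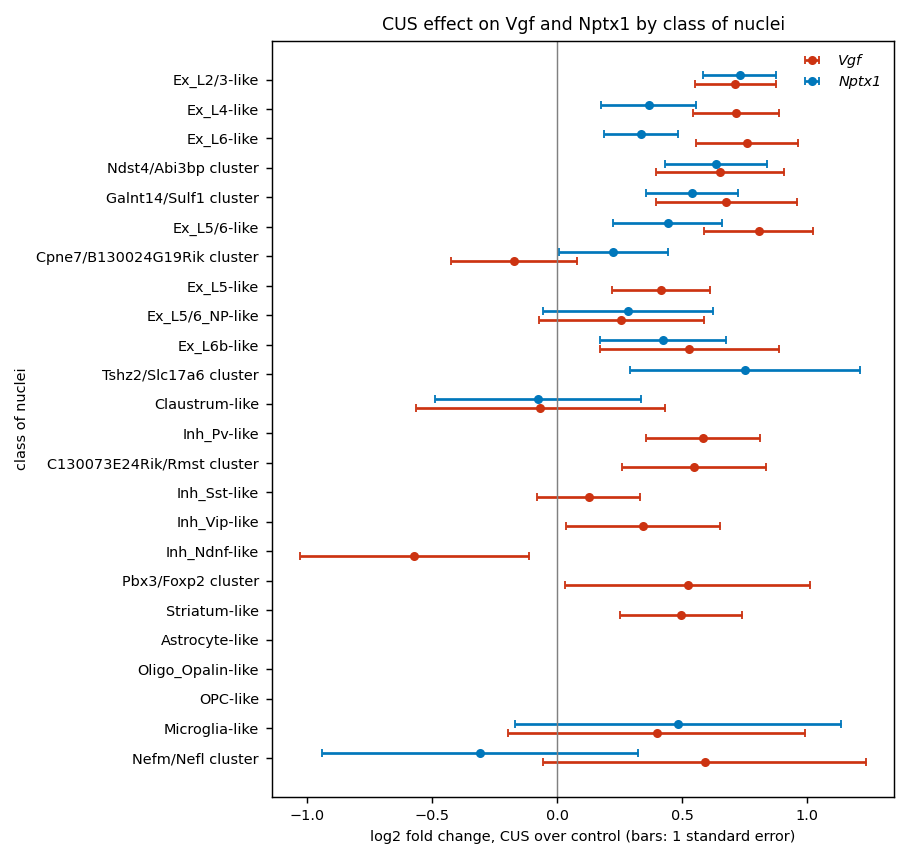
Log2 fold change of CUS over control (horizontal axis) with bars of 1 standard error for Vgf (red) and Nptx1 (blue) in each class of nuclei (vertical axis). Classes without a point were under the filter on low counts. Vgf points lie right of 0 in 17 of 20 classes and Nptx1 points in 11 of 13.

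Pcsk1 had no common direction over classes, 7 being above and 8 below 0. Its most negative value was in the Cpne7/B130024G19Rik cluster of excitatory nuclei, with 87.0, 67.1, 78.9 and 128 CPM in control and 31.6, 36.8, 43.2 and 57.8 in CUS mice. The groups did not overlap and the log2 fold change was −0.96 (SE 0.26), yet the adjusted p by edgeR was 0.716 within this class. Of 6111 genes tested there, 126 had all CUS mice below all controls and 96 had all above. Pcsk2 was below 0 in 18 of 24 classes, with a median log2 fold change of −0.11 and none called. Scg2 (12 above and 11 below 0), Scg3 (12 and 12) and Chgb (12 and 12) split about evenly. Inhba could be tested in 3 classes and Nptx2 in 1, Ex_L5/6-like nuclei, where its log2 fold change was 0.62 (SE 0.30, adjusted p = 0.849 by edgeR).

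The 9 genes differed in where they were found. Levels in control nuclei are given next as CPM of all UMIs of a class, as the mean over 4 mice, with no test. Vgf was highest in Inh_Sst-like interneurons (200 ± 25.3, SD, n = 4), followed by Nefm/Nefl nuclei (169 ± 107), Inh_Vip-like (99.1 ± 27.7) and Ex_L5-like nuclei (93.6 ± 31.7). The other excitatory classes lay between 29 and 73, and summed inhibitory nuclei (110 ± 16.3) were above summed excitatory nuclei (46.1 ± 5.88) in every mouse. Neighbours in this order overlapped in their ranges over mice at all 23 steps, so only classes further apart are distinct. The Nefm/Nefl cluster (220 nuclei) was led by Nefm, Nefl and the chaperone genes Hsp90aa1 and Hspa8, had mt-Nd1 among its leading genes and had about 0.52 of the UMIs of its libraries' typical nucleus, and its values rest on few UMIs, 11 for Vgf.

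Scg2 followed the same side as Vgf: it was at 415 ± 62.8 CPM in inhibitory and 117 ± 17.0 in excitatory nuclei, with 468 ± 120 in Inh_Vip-like nuclei. The Nefm/Nefl and C130073E24Rik/Rmst clusters had higher Scg2 means, and neighbours in this order overlapped over mice at all 23 steps. A Scg2 UMI was seen in 46.5% of inhibitory nuclei (30.7% thinned to 1000 UMIs) against 10.4% of glial and vascular nuclei (7.76% thinned). Pcsk2, Pcsk1 and Nptx1 lay on the excitatory side. Pcsk2 was at 883 ± 51.3 in excitatory and 200 ± 22.9 in inhibitory nuclei and was highest in Galnt14/Sulf1 (1239 ± 102) and Ex_L2/3-like nuclei (1197 ± 70.0). Pcsk1 had its highest mean in Ex_L5/6-like nuclei (130 ± 28.7). For both convertases the leading classes overlapped with their neighbours over mice, so the order among them is not distinct.

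Nptx1 was uneven among deep-layer neurons. Ex_L6-like nuclei had 195 ± 32.2 CPM, apart from the next named class, Ex_L6b-like, in every control mouse. Ex_L5-like nuclei had 3.94 ± 3.35 and inhibitory nuclei 9.06 ± 3.79. The latter 2 were below the 29.7 ± 8.34 of glial and vascular nuclei, so no expression can be read from them. Nptx2 was low everywhere, at most 24.8 ± 3.22 in named or gene-labelled neuron classes other than the Nefm/Nefl cluster, and was at 0 UMIs in the control nuclei of 2 classes, for which 3 UMIs is the upper limit that counting allows.

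Inhba was highest in Ex_L2/3-like nuclei (94.6 ± 24.9), Galnt14/Sulf1 nuclei (89.9 ± 27.6) and Striatum-like nuclei (89), and was near 10 in inhibitory nuclei, below the 31.5 ± 17.6 of glial and vascular nuclei. The top class of Scg3 was not neuronal. Astrocyte-like nuclei had 755 ± 90.5 CPM against 306 ± 50.2 in the next class, Ex_L6-like, without overlap over mice, and 51.1% of astrocyte-like nuclei thinned to 1000 UMIs held a Scg3 UMI. For comparison, the share was 7.58% in Oligo_Opalin-like and 11.7% in excitatory nuclei at the same depth. After CUS, Scg3 in astrocyte-like nuclei was at 807, 693, 1043 and 768 CPM, across the control values of 870, 752, 621 and 778.

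Chgb was found in every class. Its level ran from 190 in Ex_L6b-like to 1032 in Tshz2/Slc17a6 nuclei among the excitatory classes and was 299 ± 51.9 in glial and vascular nuclei. With 25.96% of glial and vascular nuclei holding a Chgb UMI (20.3% thinned) against 59.5% (36.3% thinned) in excitatory nuclei, levels near that of glial and vascular nuclei are not read as expression.

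**Figure D5:**
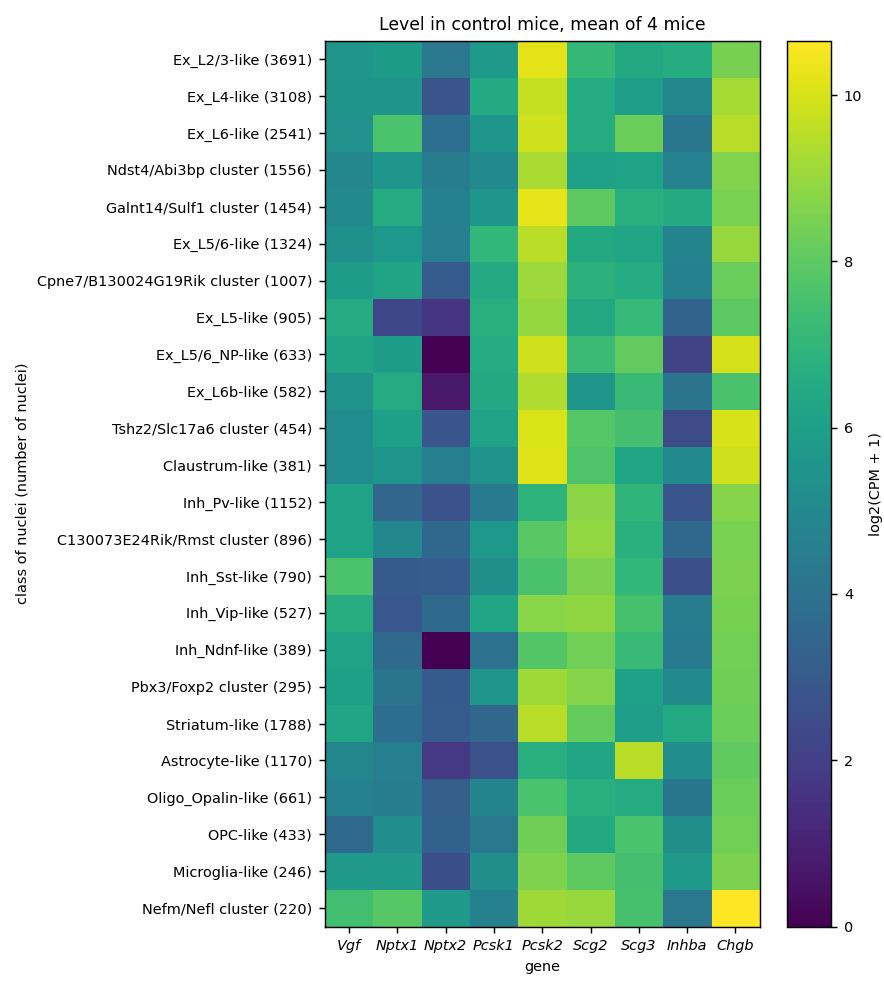
Mean level of each gene (columns) in control mice, as log2(CPM + 1), in 24 classes of nuclei (rows, with the number of nuclei). Rows run from excitatory to inhibitory, striatal and glial classes, with the unsorted Nefm/Nefl cluster last. Vgf peaks in Inh_Sst-like, Nptx1 in Ex_L6-like and Scg3 in Astrocyte-like nuclei, apart from the low-UMI Nefm/Nefl cluster.

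Patterns across classes were compared as Pearson correlations of log2(CPM + 1) over the 24 classes, which share libraries and differ in depth. Genes most like Vgf were Snrpn (0.84) and Ckmt1 (0.82), those most like Pcsk2 were Arpp21 (0.90) and Slc8a2 (0.89), and those most like Pcsk1 were Tub (0.84) and Miat (0.84). Scg3 went with the astrocyte gene Sparcl1 (0.81) and with Ddah1 (0.79), and Scg2 with Vapb (0.83) and Gaa (0.81). Nptx1 was nearest to Ttc9b (0.83) and Wdr66 (0.81), Nptx2 to Pdp1 (0.69) and Nt5c (0.67), Inhba to Sbno1 (0.76) and Ppp1r9a (0.75), and Chgb to Yaf2 (0.82) and Leprotl1 (0.80). Among the 9 genes themselves, over 19 neuron classes, Nptx1 and Pcsk2 ran together (0.70), while Vgf ran against Nptx1 (−0.70) and Scg3 against Inhba (−0.65).

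Genes that work with the 9 were examined as lists chosen by function. Of 18 genes of the regulated secretory pathway in bulk, 1 was called lower and 2 higher, against 2.13% and 1.16% of all genes. Cadps2, which primes dense-core vesicles, fell from 203 ± 11.8 to 164 ± 5.91 CPM (log2 fold change −0.30, adjusted p = 0.0148 by edgeR). Rab27b, a vesicle-docking GTPase, rose (0.30, adjusted p = 0.0212 by edgeR), as did the vesicle membrane protein gene Ptprn2 (0.28, adjusted p = 0.0311 by edgeR). The median of this list was 0.08 against 0.01 over all genes. Calls of Rab27b and Ptprn2 were lost in 4 and 5 of 9 fits that left out 1 mouse, namely without control replicate 2 or CUS replicate 3, 4 or 5 and, for Ptprn2, CUS replicate 1, and that of Cadps2 was lost without control replicate 2 or CUS replicate 4, with adjusted p of at most 0.0844 by edgeR.

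Of 7 other convertases 1 was called, Pcsk6, which fell from 21.0 ± 2.05 to 14.9 ± 0.658 CPM (log2 fold change −0.50, adjusted p = 0.0071 by edgeR), with a list median of 0.13. Of 6 partners of the pentraxins, the AMPA receptor gene Gria1 was called, with a rise of 0.38 (adjusted p = 0.0240 by edgeR, and up to 0.0705 without control replicate 2 or CUS replicate 4 or 5), and the median was 0.02. None of 13 activin signalling genes was called in bulk by edgeR's quasi-likelihood test, and 8 had an unadjusted p under 0.05, as had 21.5% of all genes tested. The nearest was Inha, a partner of Inhba in inhibin, at 17.8 ± 0.468 CPM in control and 20.4 ± 0.897 CPM in CUS mice (0.19, adjusted p = 0.0781 by edgeR).

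Among the 22 activity-regulated genes 8 were called lower and 0 higher in bulk, against 2.13% and 1.16% of all genes, with a median log2 fold change of −0.34 against 0.01 over all genes, and the study had singled out some of them on these libraries. Nr4a2 (−1.76, adjusted p = 0.0011 by edgeR), Nr4a3 (−1.19, 0.0095), Fos (−1.05, 0.0057) and Crem (−0.33, 0.0095) had the smallest p. Vgf therefore rose in the same mice in which Fos fell from 8.27 ± 1.55 to 4.01 ± 0.650 CPM. In excitatory nuclei 5 of the 22 could be tested, all 5 had a log2 fold change above 0, with a median of 0.53, and none was called by edgeR's quasi-likelihood test. Of these, 4 had an unadjusted p under 0.05, as had 9.14% of all genes tested in these nuclei. Nr4a1 was the nearest (0.62, SE 0.16, adjusted p = 0.515 by edgeR), and it passed with the likelihood ratio test, DESeq2 or no filter. It also passed without CUS replicate 2 (adjusted p = 0.1095 by edgeR), where 698 of 5422 genes were called, against 2 of 5307 with the mouse. In bulk, these same 5 genes had a median of −0.16, with 1 of them called lower. The 2 data sets differ in region, age, mice, assay and the cells sampled. By the study's methods they also differ in collection, after the last behavioral test in bulk and after the last stressor for nuclei. The difference between them was not tested.

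No gene of the other lists was called in excitatory nuclei, where 18 secretory, 2 convertase, 5 pentraxin partner and 3 activin genes could be tested, with medians of 0.06, −0.07, −0.01 and −0.00 against −0.00 over all genes. Ptprn, a vesicle membrane protein gene, was higher in every CUS mouse (180 ± 9.03 to 227 ± 12.7 CPM, log2 fold change 0.35, SE 0.09, adjusted p = 0.504 by edgeR). It passed with the likelihood ratio test or DESeq2. It also passed without CUS replicate 2 (adjusted p = 0.0847 by edgeR), where 698 of 5422 genes were called, against 2 of 5307 with the mouse. The activin receptor gene Acvr2a was lower in every CUS mouse (−0.23, SE 0.09, adjusted p = 0.515 by edgeR). Over the 5307 genes tested, 110 had all CUS mice above all controls and 176 had all below. Gria4 (−0.18, SE 0.11) and Pcsk5 (−0.17, SE 0.11) had overlapping groups. So had the genes of these lists called in bulk. In excitatory nuclei Cadps2, lower in bulk, had −0.22 (SE 0.11). Of those higher in bulk, Rab27b had −0.16 (SE 0.11), Ptprn2 −0.05 (SE 0.11) and Gria1 0.03 (SE 0.13). Pcsk6 was too sparse to test. The difference from bulk was not tested.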

How the data were processed

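Nuclear RNA of 4 control and 5 CUS mice was sequenced in bulk, and nuclei of 4 control and 4 CUS mice by sNucDrop-seq. The deposited bulk files hold read counts per gene, which the authors made by mapping with STAR to mm10 and counting unique reads with an in-house script, and strand use in counting is not given in the sources used here. The deposited nuclei tables hold UMI counts of exonic and intronic reads per gene and barcode. The 9 genes, the gene lists and the tests were chosen with earlier results of these data known.

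Barcodes were kept where 600 to 5000 genes were seen, mitochondrial UMIs stayed below 5% and the doublet score (scanpy 1.11.5) did not exceed 0.2, and they were clustered with Seurat 5.3.0 (2000 variable genes, 50 components, 20 neighbors, resolution 1). Rules for naming clusters were set after the clusters were seen, without regard to condition. UMIs were summed per mouse and class. All genes passing a filter (filterByExpr in bulk, summed UMIs above 10% of the number of nuclei) were tested with edgeR 4.0.16 (quasi-likelihood, TMM, Benjamini-Hochberg, two-sided) under R 4.3.3, with thresholds of 0.05 in bulk and 0.2 within nuclei. The study's nuclei came in 2 batches, each of 2 control and 2 CUS mice, and its methods found a strong batch effect and fitted batch. No batch term was used here, because the labels do not give the batch of a mouse. SE is the fold change's standard error, and 95% intervals are normal approximations from it. Mice of a group differed by more than counting alone gives in bulk (chi-square per degree of freedom 3.045 to 26.9), so the number of mice limits precision. Intervals rest on the spread between the 4 or 5 mice of each group. On simulated bulk counts with 200 changed genes of 18394, 56% of changes of size 0.5 and 82% of size 1 (log2) were recovered. DESeq2 1.42.0, the likelihood ratio test, other filters and scalings, and fits without each mouse were alternatives. Named genes were the 9 members and, in each list, the called gene or genes of smallest p.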

Additional observations from a re-analysis of the deposited data

Results flagged for a closer look

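Of 54 groups of 4 or 5 mice examined for a mouse far from the others, 1 was singled out, where chance would give about 1 in 20. Scg3 in bulk control replicate 4 was at 70.71 CPM, while the other 3 control mice lay between 75.76 and 76.6 CPM, and the gap made up 0.858 of the whole range. No gene's CUS effect was found to differ between excitatory and inhibitory nuclei by edgeR's quasi-likelihood test of the difference in all 8 mice. Its likelihood ratio test called 12 genes, and the fits that left out 1 mouse called 0 to 6, the most without control replicate 1. Of the 9 genes, Vgf left out, none was called in any of these fits.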

How the results depend on the processing

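Across all genes in bulk, 606 calls (392 lower, 214 higher) became 1330 with the likelihood ratio test, 1402 with DESeq2 and 238 with a replicate block, and without TMM 619 were lower and 203 higher. In excitatory nuclei 2 calls became 35 (likelihood ratio), 33 (DESeq2), 1 (no TMM), 181 (no filter), 1 (replicate block) and 6 (layer-named classes alone, added after seeing the data). In inhibitory nuclei 0 became 3 (likelihood ratio), 4 (no filter), 1 (replicate block) and 2 (1000 to 5000 genes), and for the difference between them 0 became 12 (likelihood ratio). Over single classes 129 became 363 (likelihood ratio), 235 (no filter), 330 (replicate block), 94 (DESeq2) and 101 (no TMM). Leaving out 1 mouse gave 133 to 1508 calls in bulk, 0 to 698 in excitatory and 0 to 10 in inhibitory nuclei, 0 to 6 for the difference and 40 to 1339 over classes. The highest counts came without control replicate 3 in bulk, control replicate 1 for the difference, and CUS replicate 2 in the others.

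Of the 9 genes, the 2 called in bulk became 0 with the replicate block (adjusted p 0.0903 for Vgf and 0.113 for Pcsk1) and 0 to 3 when 1 mouse was left out. In excitatory nuclei, Vgf left out, 0 became 1, Nptx1 (likelihood ratio, DESeq2 and no filter), and 0 to 1 without 1 mouse. In single classes 1 became 2 (likelihood ratio, 1000 to 5000 genes), and 0 (without CUS replicate 4) to 5 (without CUS replicate 2). Same-numbered mice correlated at 0.02306 to 0.139 in bulk, and differently numbered ones at −0.145 to 0.101. Whether the numbers pair mice was not tested. Same-numbered mice correlated at −0.1711 to 0.218 in excitatory nuclei. There, control replicates 1 and 4 correlated positively with CUS replicates 1 and 2 and negatively with CUS replicates 3 and 4. For control replicates 2 and 3 the signs were the reverse. How this grouping relates to the study's batches was not tested. In bulk, the summed nuclei and their difference, signs turned for Chgb in inhibitory nuclei without a doublet filter (0.0188) and, without 1 mouse, Chgb in bulk (−0.0859 to 0.0086), in excitatory nuclei (−0.0109 to 0.1486) and in inhibitory nuclei (−0.1398 to 0.0174), Pcsk1 (−0.1419 to 0.0541) and Scg2 (−0.0373 to 0.1837) in excitatory nuclei, Scg3 in inhibitory nuclei (−0.1428 to 0.0588), and the differences for Nptx1, sparse in inhibitory nuclei (−0.2766 to 0.0576) and Scg2 (−0.0066 to 0.2584). In single classes 57 of 145 values turned in sign in at least 1 fit without 1 mouse. The causes were not tested. Low UMI counts limit Nptx2 and Inhba in most classes.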
